A study of Mus musculus with 16 samples.

Results

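Voltage-gated calcium channels were described in mouse primary cortical neurons through 10 subunit genes, chosen by name with earlier results of these data known. These were the pore-forming alpha1 subunits *Cacna1a*, *Cacna1b*, *Cacna1c*, *Cacna1d*, *Cacna1e*, *Cacna1g*, *Cacna1h* and *Cacna1i*, and the alpha2delta subunits *Cacna2d1* and *Cacna2d2*. They are 10 of the 53750 genes with isoforms in the table, and all 10 passed the filter on low values in every comparison. The alpha1 subunit forms the pore and senses the membrane potential, whereas alpha2delta and beta subunits help to bring the channel to the membrane. In neurons, L-type channels (*Cacna1c*, *Cacna1d*) couple calcium entry to transcription, P/Q-, N- and R-type channels (*Cacna1a*, *Cacna1b*, *Cacna1e*) supply calcium for transmitter release, and T-type channels (*Cacna1g*, *Cacna1h*, *Cacna1i*) open at low voltage and shape burst firing. Calcium entry through such channels is one of the routes of calcium overload in ischemia.

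Wild-type neurons from the cortex of mouse embryos at day 15 were given vehicle (VEH) or 10 μM of the atypical antidepressant tianeptine (TIA) on day in vitro 8. After 24 h they underwent sham treatment (CONTROL) or oxygen-glucose deprivation (OGD) for 3 h, an in vitro model of ischemia, and RNA was taken after 6 h of reoxygenation. There were 4 cultures in each of the groups CONTROL-VEH (1 to 4), CONTROL-TIA (5 to 8), OGD-VEH (9 to 12) and OGD-TIA (13 to 16). Whether cultures of different groups share a preparation is not given in the sources used here. mRNA libraries were read in 50-base single-end reads, with an estimated depth of 19.7 to 24.1 M reads per culture. The values are FPKM (fragments per kilobase of transcript, scaled to the library), a level per transcript length. In the shallowest culture, 1 read from an 8 kb transcript gives 0.00635 FPKM.

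In cultures without OGD, the summed level of the 10 genes spanned from 146 ± 13 FPKM (mean ± SD, n = 4) for *Cacna1h* to 9.12 ± 2.73 FPKM for *Cacna2d2* in CONTROL-VEH. *Cacna1g* followed at 109 ± 9.48 FPKM, *Cacna1b* at 89.8 ± 16.6, *Cacna1a* at 60.5 ± 7.72 and *Cacna2d1* at 42.7 ± 5.17 FPKM. *Cacna1i* (21.3 ± 4.30), *Cacna1e* (19.9 ± 2.72), *Cacna1c* (18.1 ± 2.01) and *Cacna1d* (13.9 ± 1.67 FPKM) were lower. The ranges of neighbours in this order overlapped for *Cacna1g* and *Cacna1b*, *Cacna1b* and *Cacna1a*, *Cacna1i* and *Cacna1e*, *Cacna1e* and *Cacna1c*, and *Cacna1d* and *Cacna2d2*.

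**Figure D1:**
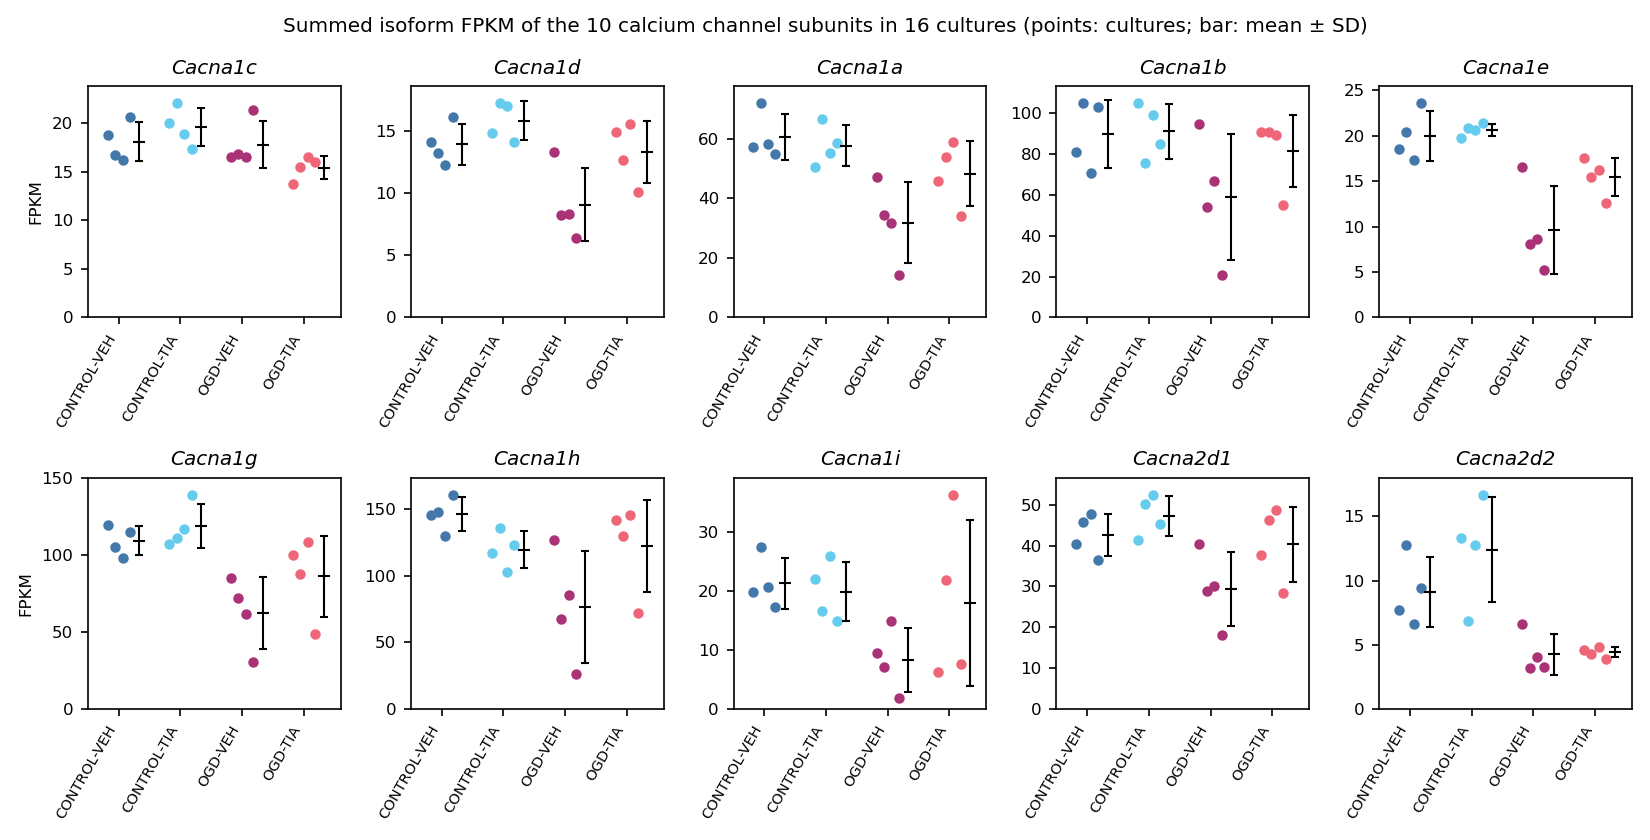
Summed isoform FPKM (vertical axes) of each of the 10 subunit genes in the 4 groups (horizontal axes); a point is a culture and the black bar is the mean ± SD of 4 cultures. For *Cacna1a*, *Cacna1e*, *Cacna1g*, *Cacna1h* and *Cacna1i* all 4 OGD-VEH cultures lie below all 4 CONTROL-VEH cultures, while for *Cacna1c* the groups overlap.

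This order depended on which isoforms were added. The sum gives a short isoform the same weight as a complete channel transcript, and isoforms under 1000 bases held 89.1% of the summed FPKM of *Cacna1g*, 83.4% of *Cacna1h*, 77.5% of *Cacna1b*, 68.5% of *Cacna1a* and 66.9% of *Cacna1i*, against 3.72% of *Cacna1e*. *Cacna1h*-204, a retained-intron isoform of 412 bases, alone held 57.5% of the summed *Cacna1h* level, and *Cacna1g*-213, a processed transcript of 434 bases, held 56.8% of *Cacna1g*. Both lie near the 3′ end of their gene, with centres 93.3% and 96.4% of the way along it, and 79.6% and 85.5% of their bases lie in exons of complete coding isoforms. In *Cacna1b*, the short isoforms 208 and 209 held 33.4% and 33.2% of the level and lie wholly in such exons. Reads of 50 bases from shared exons are divided between isoforms by estimation, so how much of these levels comes from separate short transcripts was not tested.

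The level was therefore also taken over protein-coding isoforms with at least 0.5 times the length of the longest coding isoform of the gene, here called full-length coding isoforms and chosen once the values were known. On this scale *Cacna2d1* was highest in CONTROL-VEH at 35.2 ± 4.39 FPKM (n = 4), followed by *Cacna1b* (21.2 ± 0.729), *Cacna1h* (19.6 ± 1.38) and *Cacna1e* (18.4 ± 2.45 FPKM). *Cacna1c* (12.6 ± 1.16), *Cacna1a* (12.4 ± 0.956) and *Cacna1g* (12.3 ± 0.971 FPKM) stood close together, above *Cacna1i* (6.82 ± 0.844), *Cacna2d2* (6.78 ± 0.749) and *Cacna1d* (3.89 ± 0.431 FPKM). Ranges of neighbours overlapped except between *Cacna2d1* and *Cacna1b*, *Cacna1e* and *Cacna1c*, *Cacna1g* and *Cacna1i*, and *Cacna2d2* and *Cacna1d*. *Cacna1e*, which encodes the pore of R-type channels, was held to 90.8% by 1 isoform of 14921 bases and kept almost the same level on both scales.

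**Figure D2:**
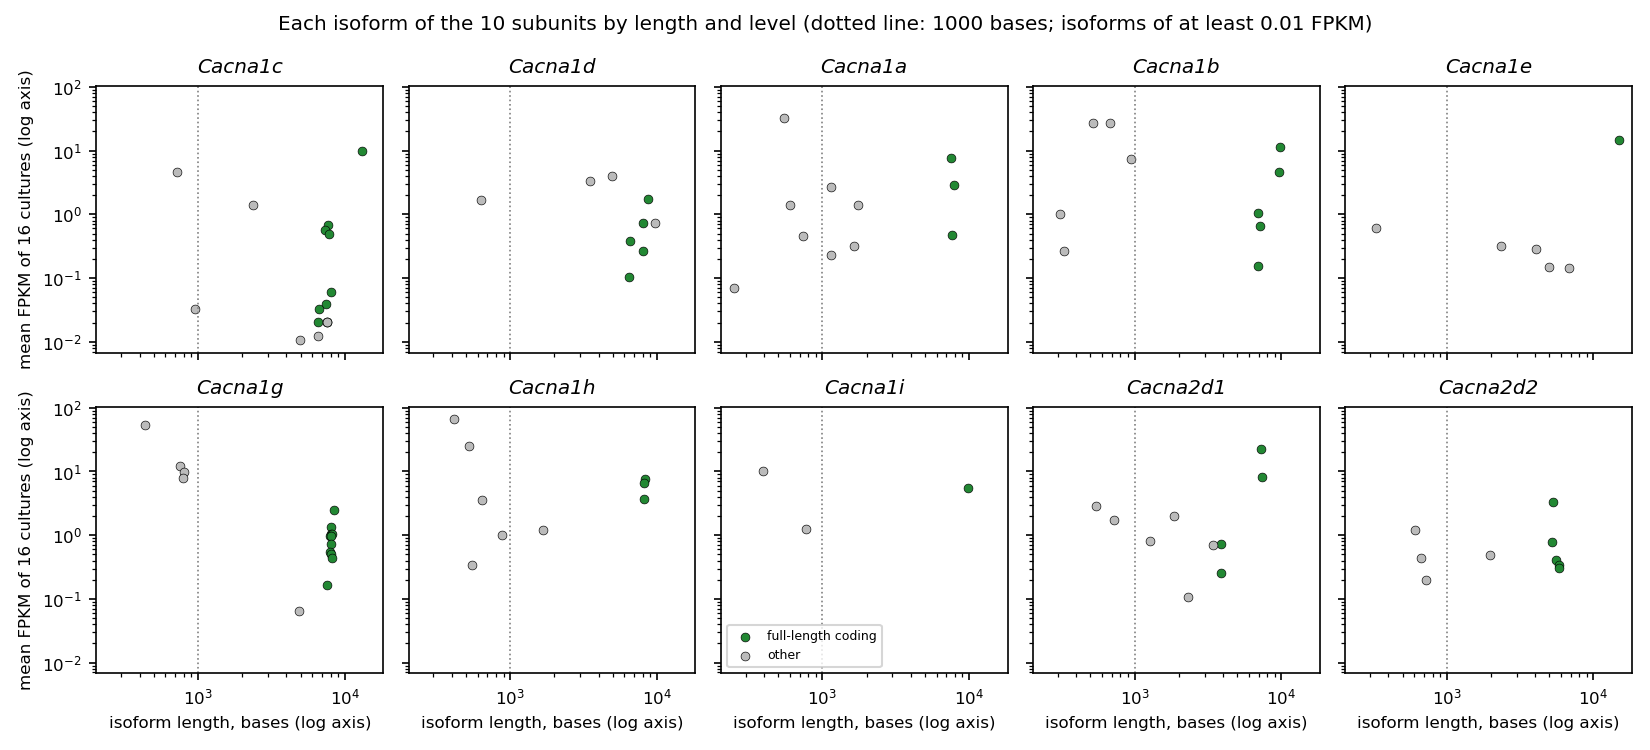
Each isoform of the 10 genes by its length (horizontal, log axis) and its mean FPKM over 16 cultures (vertical, log axis); full-length coding isoforms are green and the dotted line marks 1000 bases. In *Cacna1a*, *Cacna1b*, *Cacna1g*, *Cacna1h* and *Cacna1i* a grey isoform under 1000 bases has the highest FPKM, while in *Cacna1c*, *Cacna1e*, *Cacna2d1* and *Cacna2d2* a green one does.

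The comparison of OGD-VEH with CONTROL-VEH addressed the effect of OGD without drug. In RNA from whole cultures, fewer neurons and less of a transcript per neuron cannot be told apart. All 10 summed levels were lower on average after OGD, with a median log2 fold change of -0.97 against 0.10 over the 16365 genes tested, but none of the 10 reached a padj of 0.05 in limma (over all genes, 3.44% were lower at this padj, and 4.08% were called in either direction at padj ≤ 0.05 with a log2 fold change of at least 1 in size). At an unadjusted p under 0.05 there were 8 members lower and 0 higher, where 14.8% of all genes were lower. In 5 members all OGD-VEH cultures lay below all CONTROL-VEH cultures (9.93% of all genes). On the full-length scale, 9 of 10 members fell at padj ≤ 0.05 (9.38% of genes on that scale were lower), and 4 of them by a log2 fold change of at least 1 in size (2.59% of genes). On that scale the groups did not overlap for those same 9 members, where 11.5% of genes were lower without overlap, and *Cacna1c* was the exception. The padj of these 9 stood close to the threshold, between 0.0259 and 0.0458. Their number was 0 when any one of CONTROL-VEH 1, 2, 3 or 4 or OGD-VEH 10 or 11 was left out, 5 without OGD-VEH 12 and 9 without OGD-VEH 9, while the median log2 fold change of the members stayed between -0.98 and -0.65.

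Among the L-type subunits, *Cacna1c* (GRCm38 chromosome 6, 118587240 to 119196418, reverse strand) had summed levels of 18.8, 16.8, 16.2 and 20.7 FPKM in CONTROL-VEH 1 to 4 and of 16.5, 16.9, 16.5 and 21.4 FPKM in OGD-VEH 9 to 12. The groups overlapped, and the highest of these 8 values was an OGD culture. Its log2 fold change was -0.03 (SE 0.14, 95% confidence interval -0.34 to 0.29, limma padj = 0.904). On the full-length scale it was -0.20 (interval -0.42 to 0.03, padj = 0.151). *Cacna1d* (chromosome 14, 30039939 to 30491455, reverse strand) had summed levels of 14.1, 13.2, 12.2 and 16.1 FPKM in the CONTROL-VEH cultures and 13.3, 8.23, 8.31 and 6.39 FPKM after OGD. OGD-VEH 9 lay within the control range and the other 3 cultures below it, for a log2 fold change of -0.65 (SE 0.22, padj = 0.0797). In full-length isoforms, which hold 24.8% of its summed level, *Cacna1d* fell by 0.82 on the log2 scale (SE 0.19, padj = 0.0291), from 3.89 to 2.19 FPKM. Exons of *Cacna1d* share 589 bases with *Chdh* on the opposite strand, and exons of *Cacna1a*, *Cacna1h* and *Cacna2d2* share 82 to 435 bases with other genes there. The strand setting of the counting is not given in the sources used here.

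Of the subunits that serve transmitter release, *Cacna1e* (chromosome 1, 154390731 to 154884501, reverse strand) had 18.5, 20.4, 17.3 and 23.6 FPKM in CONTROL-VEH, compared with 16.6, 8.04, 8.66 and 5.17 FPKM in OGD-VEH, summed. The groups did not overlap, although OGD-VEH 9 came within 1 FPKM of the lowest control. The log2 fold change was -1.16 (SE 0.31, padj = 0.0527), and in full-length isoforms *Cacna1e* fell by 1.12 (SE 0.30, padj = 0.0331), from 18.4 to 9.12 FPKM. *Cacna1a* (chromosome 8, 84388440 to 84640246, forward strand), the pore of P/Q-type channels, had 57.1, 71.9, 58.3 and 54.9 FPKM in CONTROL-VEH, against 47.0, 34.3, 31.7 and 14.3 FPKM in OGD-VEH. All 4 OGD-VEH cultures were lower, with a log2 fold change of -1.04 (SE 0.32, padj = 0.0678), and full-length *Cacna1a* fell by 0.58 (SE 0.16, padj = 0.0365). *Cacna1b* (chromosome 2, 24603887 to 24763152, reverse strand), the pore of N-type channels, had 81.1, 105, 70.7 and 103 FPKM in the CONTROL-VEH cultures and 94.7, 53.9, 66.6 and 20.6 FPKM after OGD. OGD-VEH 9 stood among the controls and the log2 fold change was -0.78 (SE 0.42, padj = 0.212). In full-length isoforms, CONTROL-VEH held 21.5, 22, 20.4 and 20.7 FPKM and OGD-VEH 19.5, 12.3, 12.5 and 7.48 FPKM of *Cacna1b*, so that the groups separated on this scale, with a fall by 0.79 (SE 0.24, padj = 0.0451).

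The T-type subunits were lower in all 4 OGD-VEH cultures than in any CONTROL-VEH culture, on both scales. *Cacna1g* (chromosome 11, 94408391 to 94474198, reverse strand) had 119, 105, 97.9 and 115 FPKM in CONTROL-VEH, compared with 85.1, 72.0, 61.6 and 30.5 FPKM in OGD-VEH, summed, a log2 fold change of -0.90 (SE 0.29, padj = 0.0715). *Cacna1h* (chromosome 17, 25374285 to 25433783, reverse strand) had 146, 148, 130 and 161 FPKM in CONTROL-VEH, against 127, 67.5, 85.2 and 26.0 FPKM in OGD-VEH, a log2 fold change of -1.14 (SE 0.42, padj = 0.0941). *Cacna1i* (chromosome 15, 80287238 to 80398279, forward strand) had 19.8, 27.4, 20.7 and 17.3 FPKM in the CONTROL-VEH cultures and 9.43, 7.17, 14.8 and 1.80 FPKM after OGD, a log2 fold change of -1.67 (SE 0.56, padj = 0.0788). OGD-VEH 12 was lowest for each of the 3 genes. In full-length isoforms, *Cacna1i* fell by 1.20 (SE 0.29, padj = 0.0296), *Cacna1g* by 1.01 (SE 0.27, padj = 0.0344) and *Cacna1h* by 0.49 (SE 0.14, padj = 0.0366) on the log2 scale. The difference in *Cacna1h* was thus smaller in complete coding isoforms than in the sum that its short isoforms dominate.

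The alpha2delta subunits, which bind gabapentinoids, are extracellular partners of the pore. *Cacna2d2* (chromosome 9, 107399612 to 107529343, forward strand) had 7.67, 12.8, 6.59 and 9.40 FPKM in CONTROL-VEH, compared with 6.60, 3.15, 4.05 and 3.23 FPKM in OGD-VEH, summed. OGD-VEH 9 stood level with the lowest control and the other 3 cultures lay below, for a log2 fold change of -1.10 (SE 0.29, padj = 0.0505). Its full-length isoforms separated the groups, with 7.08, 6.15, 6.18 and 7.70 FPKM in CONTROL-VEH against 4.08, 2.85, 3.46 and 3.02 FPKM in OGD-VEH, and fell by 1.0 (SE 0.15, padj = 0.0259). *Cacna2d1* (chromosome 5, 15934691 to 16374511, forward strand) had 40.5, 45.9, 47.8 and 36.5 FPKM in CONTROL-VEH, against 40.3, 29.0, 30.1 and 18.1 FPKM in OGD-VEH, a log2 fold change of -0.59 (SE 0.23, padj = 0.111) with OGD-VEH 9 again inside the control range. Full-length *Cacna2d1* fell by 0.76 (SE 0.24, padj = 0.0458), from 35.2 to 21.6 FPKM. OGD-VEH 9 and CONTROL-VEH 4 were both at 30.8 FPKM on that scale, and the groups separated only before rounding.

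**Figure D3:**
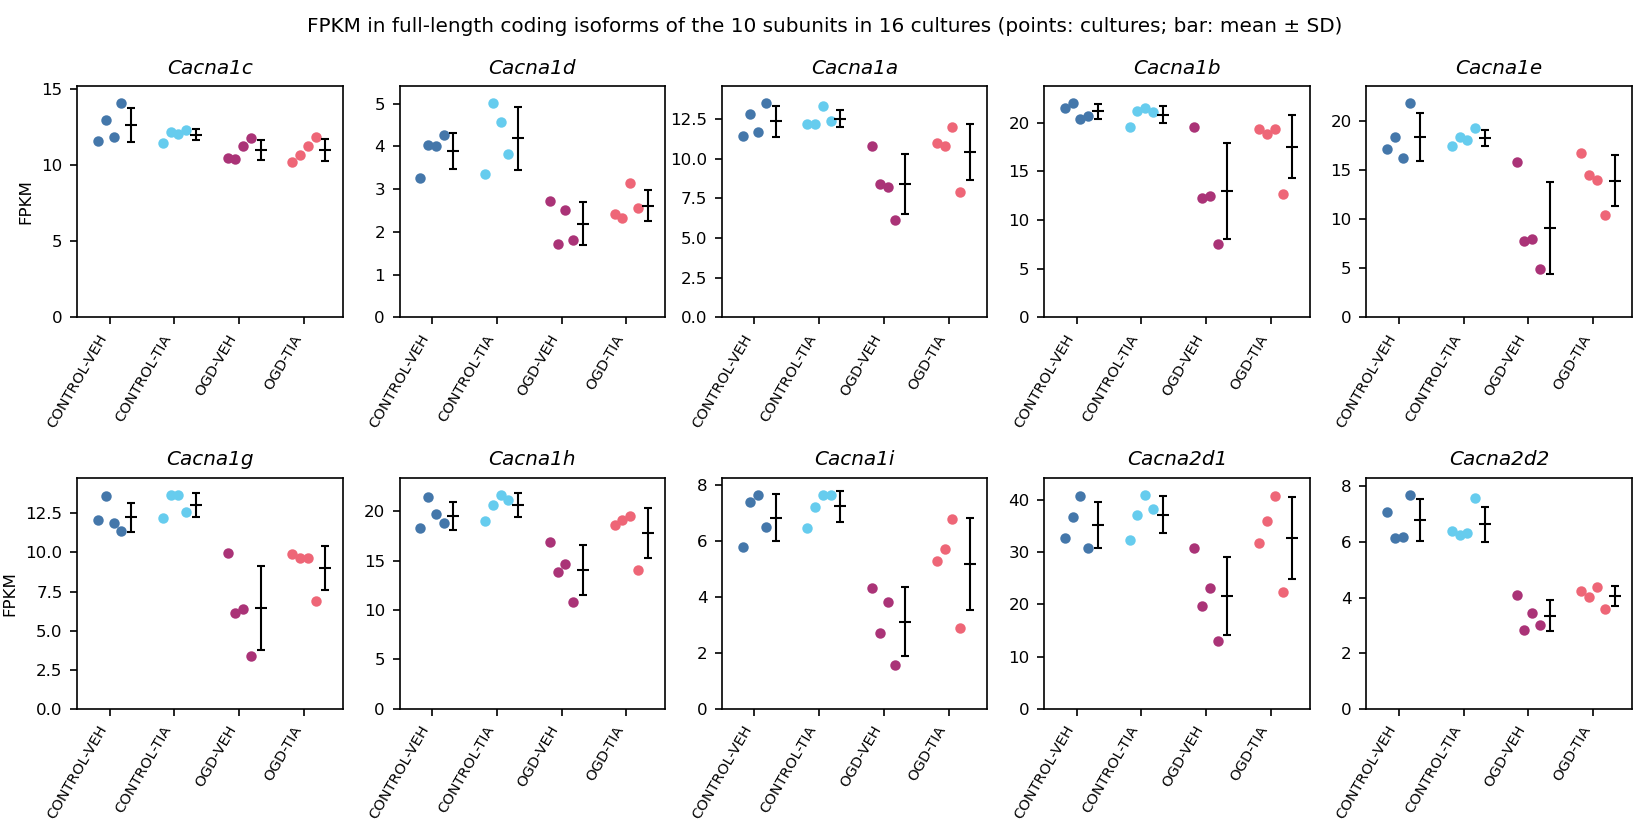
FPKM in full-length coding isoforms (vertical axes) of the 10 genes in the 4 groups (horizontal axes); a point is a culture and the bar is the mean ± SD of 4 cultures. All 4 OGD-VEH cultures lie below all 4 CONTROL-VEH cultures for each gene except *Cacna1c*, although for *Cacna2d1* only before rounding. OGD-VEH 12 and OGD-TIA 16 are the lowest of their groups for most genes.

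The OGD-VEH cultures differed widely among themselves, with the same highest and lowest culture for most members. OGD-VEH 12 was the lowest of all 16 cultures for 8 of 10 members on the summed scale and OGD-VEH 9 was the highest of its group for 8. As a median over the members in full-length isoforms, the level was 84.7% of the CONTROL-VEH mean in OGD-VEH 9, 52.7% in OGD-VEH 10, 61.9% in OGD-VEH 11 and 40.6% in OGD-VEH 12. In OGD-VEH 12 the members ranged from 22.8% (*Cacna1i*) to 93.0% (*Cacna1c*). The count of members at padj ≤ 0.05 changed with the cultures used, and the cause was not tested. Without OGD-VEH 9 the count was 7 of 10 in place of 0 on the summed scale, with 5 called. Without each other single culture it was 0 on that scale. Without the lowest OGD culture of each arm, OGD-VEH 12 and OGD-TIA 16, left out after the values were seen, it was 0 on the summed scale with a median log2 fold change of -0.64, and 5 in full-length isoforms with a median of -0.65.

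The 8 neuron markers of the cultures (*Rbfox3*, *Map2*, *Tubb3*, *Snap25*, *Syt1*, *Stmn2*, *Nefl*, *Nefm*) moved with the members. Their summed level was 2659 to 3148 FPKM in CONTROL-VEH and 2690 to 2815 FPKM in CONTROL-TIA, but 2381, 1782, 1728 and 1123 FPKM in OGD-VEH 9 to 12 and 2570, 2610, 2687 and 1574 FPKM in OGD-TIA 13 to 16. All 8 markers were lower on average in OGD-VEH than in CONTROL-VEH, with a median log2 fold change of -0.93 beside -0.97 for the members. Of the 8, 1 (*Syt1*) reached padj ≤ 0.05, where 3.44% of all genes were lower. In full-length isoforms 5 of 8 markers fell at padj ≤ 0.05 (9.38% of genes on that scale), beside 9 of 10 members, with medians of -0.84 and -0.80. Of the other cell types, 4 of 7 tested oligodendrocyte lineage genes rose at padj ≤ 0.05 (*Olig1*, *Olig2*, *Sox10*, *Cspg4*), where 820 of 16365 genes rose. *Mbp*, the gene of a myelin protein, fell at this padj. The sum of the oligodendrocyte lineage genes was 244 to 676 FPKM in OGD-VEH against 177 to 213 FPKM in CONTROL-VEH. On the summed scale, the 6 astrocyte markers (median log2 fold change 0.67) and the 3 markers of cycling cells (1.16) did not reach padj ≤ 0.05. Nor did the 4 excitatory (-0.97) and 4 inhibitory (-0.37) neuron markers or the 2 tested of 5 fibroblast and pericyte markers (-0.61) on that scale. In full-length isoforms 1 of 4 excitatory, 1 of 4 inhibitory and 1 of 2 tested fibroblast and pericyte markers fell at this padj (9.38% of genes). There, 1 of 6 astrocyte and 1 of 2 tested cycling cell markers rose, where 1923 of 12785 genes rose. The sum of 6 microglia markers was at most 3.03 FPKM and that of 4 endothelial markers at most 0.698 FPKM in any culture. The part of cell composition in the members' difference was not tested beyond the following values.

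Set against the neuron markers (FPKM of the member per 1000 FPKM of the 8 markers together, chosen after the values were seen), none of the 10 members separated OGD-VEH from CONTROL-VEH on either scale, where 0.923% of all genes were lower without overlap on the summed scale and 0.743% on the full-length scale. *Cacna1e* had 6.45, 6.72, 5.39 and 6.92 in CONTROL-VEH and 6.63, 4.33, 4.62 and 4.42 in OGD-VEH in full-length isoforms. That is a log2 difference of -0.37 (two-sided exact permutation p = 0.0857, n = 4 per group, smallest possible p 0.0286). *Cacna1i* differed by -0.47 (exact permutation p = 0.0857), *Cacna1g* by -0.26 (p = 0.143, exact) and *Cacna2d2* by -0.26 (p = 0.200, exact). The full-length estimates were above 0 for *Cacna1a* (0.18, exact permutation p = 0.0571, the smallest of the 10 on that scale) and *Cacna1h* (0.27, exact permutation p = 0.0857). On the summed scale both were below 0 (*Cacna1a* -0.28, exact permutation p = 0.257, and *Cacna1h* -0.38, exact permutation p = 0.200). In full-length isoforms *Cacna1c* had 4.36, 4.74, 3.95 and 4.49 in CONTROL-VEH and 4.43, 5.85, 6.52 and 10.5 in OGD-VEH. Its highest value was in OGD-VEH 12 and its log2 difference was 0.57 (exact permutation p = 0.0857). These p-values were not adjusted over the members.

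**Figure D4:**
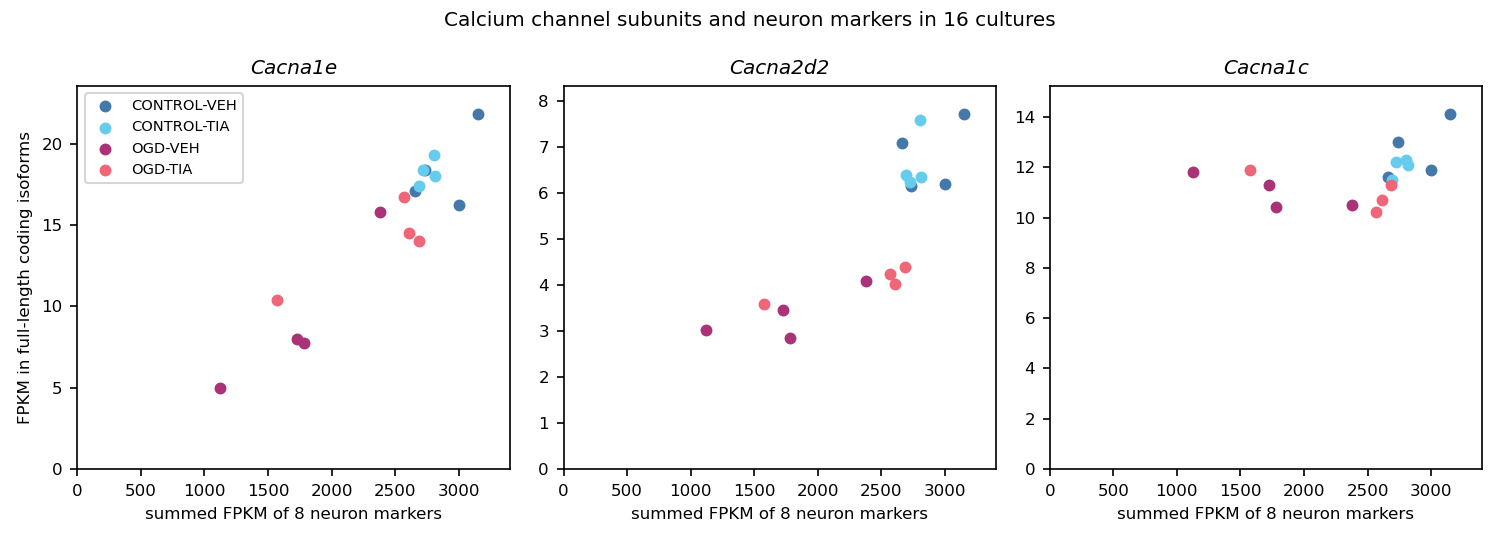
FPKM in full-length coding isoforms of *Cacna1e*, *Cacna2d2* and *Cacna1c* (vertical axes) against the summed FPKM of 8 neuron markers (horizontal axes), with 1 point for each of 16 cultures coloured by group. *Cacna1e* is lowest where the neuron markers are lowest (OGD-VEH 12, 4.96 FPKM), *Cacna2d2* stays between 4.01 and 4.38 FPKM in OGD-TIA 13 to 15 although their marker sums are near the controls, and *Cacna1c* lies between 10.2 and 14.1 FPKM throughout.

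The same question in the TIA arm was addressed by OGD-TIA against CONTROL-TIA. All 10 members were again lower on average, by a median log2 fold change of -0.31 against 0.04 over 16262 genes. With limma 0 of 10 reached padj ≤ 0.05, as did 0 of all genes (0.0%). At an unadjusted p under 0.05 there were 3 members, all lower (*Cacna1c*, *Cacna1e* and *Cacna2d2*), where 7.91% of all genes were lower. These 3 were also the members whose groups did not overlap (6.70% of genes were lower without overlap), and in full-length isoforms there were 6 (8.51% of genes).

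*Cacna2d2* showed the largest difference in this arm. Its summed level was 13.3, 6.84, 12.8 and 16.7 FPKM in CONTROL-TIA 5 to 8 and 4.6, 4.29, 4.81 and 3.91 FPKM in OGD-TIA 13 to 16. All 4 OGD-TIA cultures lay below the controls, with a log2 fold change of -1.41 (SE 0.25, padj = 0.105). In full-length isoforms, with 6.39, 6.24, 6.33 and 7.57 FPKM in CONTROL-TIA and 4.23, 4.01, 4.38 and 3.58 FPKM in OGD-TIA, *Cacna2d2* fell by 0.70 (SE 0.10, padj = 0.0478) and was the only member at padj ≤ 0.05, where 0.236% of genes were lower. It lost this padj when any culture except OGD-TIA 16 was left out, and without OGD-TIA 16 *Cacna1g* passed beside it. Per 1000 FPKM of neuron markers, the summed level of *Cacna2d2* was 4.49 ± 1.45 in CONTROL-TIA and 1.93 ± 0.377 in OGD-TIA (mean ± SD, n = 4), a log2 difference of -1.17 without overlap, as for 1.89% of genes (exact permutation p = 0.0286, the smallest possible). In full-length isoforms that difference was -0.46 and the groups overlapped (exact permutation p = 0.0571). The T-type subunit *Cacna1g* was the other member lower without overlap on this ratio, in full-length isoforms only (-0.29, exact permutation p = 0.0286, where 1.96% of genes were lower without overlap).

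For *Cacna1e* the summed levels were 19.8, 20.9, 20.6 and 21.4 FPKM in CONTROL-TIA and 17.6, 15.5, 16.2 and 12.6 FPKM in OGD-TIA. The groups did not overlap and the log2 fold change was -0.43 (SE 0.11, padj = 0.140). *Cacna1c* had 20.1, 22.1, 18.9 and 17.4 FPKM in CONTROL-TIA and 13.8, 15.5, 16.5 and 16 FPKM in OGD-TIA, also without overlap, with a log2 fold change of -0.34 (SE 0.10, padj = 0.165). In full-length isoforms the groups of *Cacna1c* overlapped and the log2 fold change was -0.12 (padj = 0.278). *Cacna1h* had 117, 136, 103 and 123 FPKM in CONTROL-TIA and 142, 130, 146 and 71.9 FPKM in OGD-TIA. Of its OGD-TIA values, 3 lay in or above the control range and OGD-TIA 16 below it, for a log2 fold change of -0.01 (SE 0.22) that became 0.23 without OGD-TIA 16. Summed *Cacna1i* ranged from 6.25 to 36.3 FPKM in OGD-TIA, the widest spread of any member relative to its mean on that scale. Its summed log2 fold change was -0.47 (interval -1.71 to 0.77). The *Cacna1i* isoform of 394 bases alone was at 12.8 ± 12.8 FPKM (mean ± SD) in OGD-TIA. Full-length *Cacna1i* ranged from 2.9 to 6.77 FPKM there and the groups overlapped. Its log2 fold change on that scale was -0.54 (interval -1.07 to -0.01, padj = 0.182). For *Cacna1a*, *Cacna1b*, *Cacna1d*, *Cacna1g* and *Cacna2d1* the summed log2 fold changes lay between -0.52 and -0.18 and the groups overlapped.

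**Figure D5:**
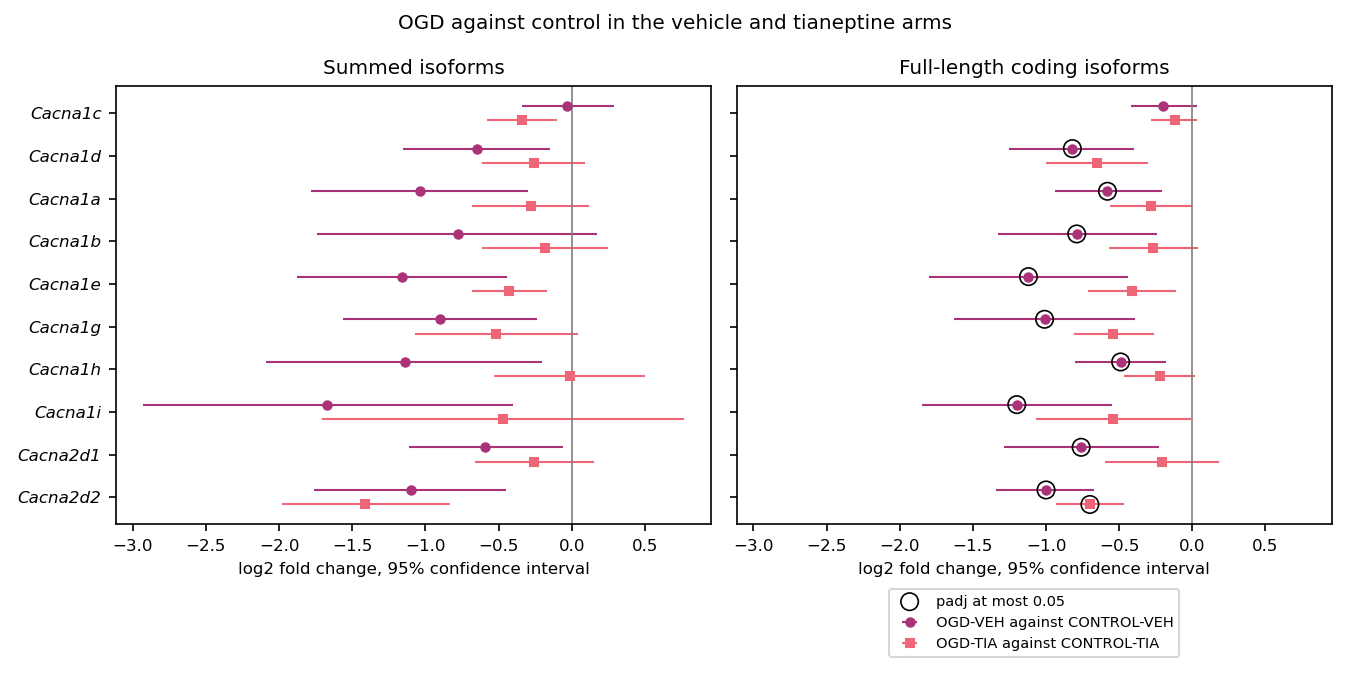
Log2 fold change with its 95% confidence interval from limma (horizontal axis) for each member (vertical axis) in OGD-VEH against CONTROL-VEH (circles) and OGD-TIA against CONTROL-TIA (squares), from summed isoforms (left) and full-length coding isoforms (right). Rings mark padj ≤ 0.05: there are none on the left, and on the right 9 members in the VEH arm and *Cacna2d2* in the TIA arm.

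Whether the effect of OGD differed between the arms was tested by the interaction over 16 cultures. None of the 10 members reached padj ≤ 0.05, as was so for all 16331 genes (0.0%), and the smallest member padj was 0.723. At an unadjusted p under 0.05 there was 1 member, *Cacna1h*, with an interaction of 1.13 on the log2 scale (interval 0.05 to 2.22), where 2.68% of genes were higher. In full-length isoforms its interaction was 0.27 (interval -0.11 to 0.65) and 0 of 10 members had such a p. In 8 of 10 members the estimate was above 0, that is, the OGD difference was smaller in size with TIA, whereas 54.2% of all genes were below 0. The median of the members was 0.50 against -0.03 over all genes, and it was 0.20 without OGD-VEH 12 and 0.75 without OGD-VEH 9. The 8 neuron markers had a median interaction of 0.58. The intervals were wide, for example from -0.02 to 1.49 for *Cacna1e*. For *Cacna2d2* (-0.31, interval -1.16 to 0.55) and *Cacna1c* (-0.31, interval -0.66 to 0.04) the estimates were below 0. In full-length isoforms they were 0.30 and 0.07, and 0 members reached padj ≤ 0.05 there.

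In OGD-TIA against OGD-VEH the median log2 fold change of the members was 0.61, against -0.05 over 16369 genes, with 0 of 10 at padj ≤ 0.05 (0.0% of all genes). At an unadjusted p under 0.05 there were *Cacna1e* (0.80, interval 0.06 to 1.53, padj = 0.551) and *Cacna1d* (0.58, interval 0.03 to 1.13, padj = 0.551), where 2.87% of genes were higher. In full-length isoforms 0 of 10 members had such a p, with 0.71 for *Cacna1e* and 0.26 for *Cacna1d*. In this comparison all members overlapped except *Cacna1c*, whose 4 summed OGD-TIA values (at most 16.5 FPKM) were all below the lowest OGD-VEH value before rounding, as were 2.49% of genes. Its log2 fold change was -0.20 (interval -0.49 to 0.09), and in full-length isoforms the groups overlapped with means of 11.1 and 11 FPKM. OGD-TIA 13 to 15 stood at 82.7 to 93.1% of the CONTROL-TIA mean as a median over the members in full-length isoforms, and OGD-TIA 16 at 60.6%. TIA without OGD left the members within their spread: in CONTROL-TIA against CONTROL-VEH all 10 overlapped (1.11% of genes were lower without overlap), 0 reached padj ≤ 0.05 (0.0% of 16185 genes), and the median log2 fold change was 0.09. Only *Cacna1h* had an unadjusted p under 0.05 (-0.29, interval -0.53 to -0.05, padj = 1.0, where 2.03% of genes were lower), and its full-length difference was 0.08 (interval -0.08 to 0.23).

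When the OGD effect was averaged over both arms in a model of 16 cultures, 6 of 10 members fell at padj ≤ 0.05 and none rose, where 13.7% of 16331 genes were lower at that padj. *Cacna2d2* fell most among these, by 1.25 on the log2 scale (SE 0.20, padj = 0.00140), and was the member with a log2 fold change beyond -1 (2.0% of genes were called lower). *Cacna1e* fell by 0.79 (padj = 0.00554), *Cacna1g* by 0.71 (padj = 0.0166), *Cacna1a* by 0.66 (padj = 0.0205), *Cacna1d* by 0.46 (padj = 0.0210) and *Cacna2d1* by 0.42 (padj = 0.0448). *Cacna1i* (-1.07, padj = 0.0625), *Cacna1h* (-0.58, padj = 0.0934), *Cacna1c* (-0.18, padj = 0.0969) and *Cacna1b* (-0.48, padj = 0.144) did not pass. In full-length isoforms all 10 fell at padj ≤ 0.05 (18.0% of genes), from 0.16 for *Cacna1c* (SE 0.05, padj = 0.0271) to 0.87 for *Cacna1i* (SE 0.20, padj = 0.00360). With any 1 culture left out, 9 or 10 of the members still fell at this padj on that scale, and *Cacna1c* was the member lost. This model shares its cultures with the comparisons above and is no separate evidence. The neuron markers moved with it as well, with 7 of 8 lower at padj ≤ 0.05 and a median of -0.62, the same as that of the members.

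The other subunits of these channels comprised 16 genes, of which 11 could be tested in OGD-VEH against CONTROL-VEH. The muscle and retina pore genes *Cacna1s* and *Cacna1f* were almost absent, with means of at most 0.0488 and 0.0168 FPKM in any group. There were 3 subunits lower at padj ≤ 0.05 and none higher, where 3.44% of all genes were lower, with a median log2 fold change of -0.52. All 3 on this summed scale belong to the gamma family, whose members *Cacng2*, *Cacng3* and *Cacng8* are known mainly as AMPA receptor auxiliary proteins: *Cacng3* fell by 1.62 (padj = 0.0419), from 10.6 ± 2.16 to 3.76 ± 2.42 FPKM, *Cacng2* by 0.85 (padj = 0.0435) and *Cacng8* by 0.62 (padj = 0.0483). In full-length isoforms 3 of 11 were lower as well (9.38% of genes on that scale), but with *Cacnb3* (fell by 0.52, padj = 0.0285) in place of *Cacng3* (-0.95, padj = 0.0657). The beta subunits, which bind the pore inside the cell, had log2 fold changes of -0.56 (*Cacnb1*, padj = 0.109), -0.32 (*Cacnb2*, padj = 0.498), -0.48 (*Cacnb3*, padj = 0.0874) and -0.52 (*Cacnb4*, padj = 0.0745) on the summed scale, and *Cacnb2* was at 0.18 (padj = 0.602) in full-length isoforms. *Cacnb3* was the most abundant of them at 86.1 ± 9.20 FPKM in the CONTROL-VEH cultures and 62.7 ± 12.3 FPKM after OGD. Averaged over both arms, *Cacnb3* (fell by 0.37, padj = 0.0134), *Cacnb4* (fell by 0.33, padj = 0.0231) and *Cacnb1* (fell by 0.38, padj = 0.0465) passed. With the 3 gamma genes they made up the 6 of 12 subunits lower at padj ≤ 0.05, where 13.7% of all genes were lower.

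Of 22 genes for proteins that bind or regulate the channels, 20 could be tested in OGD-VEH against CONTROL-VEH, with a median of -0.71. At padj ≤ 0.05, 6 were lower and none higher, where 3.44% of all genes were lower. *Rem2*, a small GTPase that inhibits high-voltage-activated channels, fell by 1.33 (padj = 0.0419) and *Rims1*, an active-zone scaffold that tethers presynaptic channels, fell by 1.0 (padj = 0.0460). In full-length isoforms 9 of 20 were lower at padj ≤ 0.05 (9.38% of genes on that scale) and 1 was higher (1923 of 12785 genes). The higher one was *Cachd1* (0.74, padj = 0.0319). *Rem2* (-0.42, padj = 0.0852) and *Rims1* (-0.69, padj = 0.143) did not pass on that scale. The sodium leak channel gene *Nalcn* fell by 0.49 (padj = 0.0454), and by 0.48 (padj = 0.0285) in full-length isoforms. Averaged over both arms, 14 of 20 fell and 2 rose at padj ≤ 0.05, where 13.7% of all genes were lower and 18.8% higher. The 2 that rose, a share below that of all genes, were *Gem*, another small GTPase that inhibits these channels (0.98, padj = 0.0277), and *Cachd1*, an alpha2delta-like protein (0.91, padj = 0.0162). *Gem* was at 2.65 ± 1.50 FPKM in CONTROL-VEH, 1.67 ± 0.235 in CONTROL-TIA, 6.13 ± 3.23 in OGD-VEH and 3.38 ± 2.17 FPKM in OGD-TIA (mean ± SD, n = 4 each).

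Across the 16 cultures, 9 of the members followed the mean of the other members closely, with Pearson's r from 0.69 (*Cacna2d2*) to 0.96 (*Cacna1a*) on log2 FPKM, while *Cacna1c* had -0.04. These values are a description, since the cultures fall into groups and share their treatment. Of 16321 other genes, *Sema4d* (r = 0.989), *Pclo* (0.987), *Adamts18* (0.982), *Rasgef1a* (0.981) and *Shank2* (0.981) had the pattern most like the members' mean. *Pclo*, which encodes a large protein of the presynaptic active zone, was at 22 ± 1.70 FPKM in CONTROL-VEH, 22.5 ± 1.29 in CONTROL-TIA, 12.2 ± 4.98 in OGD-VEH and 17.1 ± 3.38 FPKM in OGD-TIA.

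Promoter sequences were read from RefSeq (GRCm38.p6) for the 7 members found there. Each was the 250 bases before the RefSeq start closest to the 5′ end of the most abundant full-length coding isoform. Listed transcripts lie over the windows of *Cacna1d* (13), *Cacna1c* (4), *Cacna1e* (4) and *Cacna2d2* (2). These windows lie partly or wholly within their gene rather than before it. The 7 windows were searched on both strands for the GC box bound by SP factors (GGGCGG, overlapping copies counted), the cAMP response element (TGACGTCA), the AP-1 site (TGANTCA) and the TATA box (TATAAA). These occur in 33.0%, 1.56%, 6.73% and 12.3% of 32536 promoters. None of the 7 held the cAMP response element or the AP-1 site in this window. The GC box occurred 6 times in *Cacna2d1*, 3 times in *Cacna1b* and once in *Cacna2d2*, and *Cacna1d* held the TATA letters 3 times. The following 3 windows, over which no listed transcript lies, are shown because they span these differences among members that were all lower after OGD in full-length isoforms. They are chr5:15934441-15934690 (forward strand) for *Cacna2d1*, chr2:24763153-24763402 (reverse strand) for *Cacna1b* and chr15:80286988-80287237 (forward strand) for *Cacna1i*, written 5′ to 3′ with GC boxes in capitals.
Cacna2d1: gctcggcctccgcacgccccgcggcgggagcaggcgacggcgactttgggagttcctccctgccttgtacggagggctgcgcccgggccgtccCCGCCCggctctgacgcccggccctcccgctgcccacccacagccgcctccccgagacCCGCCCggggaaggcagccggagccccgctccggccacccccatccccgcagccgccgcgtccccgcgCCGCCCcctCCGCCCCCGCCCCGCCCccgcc
Cacna1b: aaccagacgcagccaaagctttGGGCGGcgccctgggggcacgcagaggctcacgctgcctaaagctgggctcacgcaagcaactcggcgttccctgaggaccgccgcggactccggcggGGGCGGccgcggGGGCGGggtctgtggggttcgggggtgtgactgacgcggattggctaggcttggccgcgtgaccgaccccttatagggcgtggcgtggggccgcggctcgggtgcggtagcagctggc
Cacna1i: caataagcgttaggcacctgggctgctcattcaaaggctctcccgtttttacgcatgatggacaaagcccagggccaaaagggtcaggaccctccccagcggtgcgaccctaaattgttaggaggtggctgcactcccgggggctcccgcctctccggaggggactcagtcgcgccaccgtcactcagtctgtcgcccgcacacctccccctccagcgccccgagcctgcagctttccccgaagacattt

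In full-length isoforms the members with GC boxes fell in OGD-VEH by 0.76 (*Cacna2d1*, 6 boxes, GC content 82.4%), 0.79 (*Cacna1b*, 3 boxes, 72.0%) and 1.0 (*Cacna2d2*, 1 box, 74.4%) on the log2 scale. Those without the box fell by 1.20 (*Cacna1i*, GC content 62.4%), 1.12 (*Cacna1e*, 52.0%) and 0.82 (*Cacna1d*, 39.6%), and *Cacna1c* (51.6%) was at -0.20 (padj = 0.151). The 2 sets overlapped in the size of their differences. The median GC content over all promoters in the table was 52.4%. A match to such letters is not a test of binding, and no factor was measured here.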

How the data were processed

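Libraries were prepared from poly(A) RNA of 16 cultures with a stranded kit and read as 50-base single-end reads. The authors used FastQC, STAR with GRCm38 (Ensembl release 92), eXpress and DESeq2 through a service provider, and deposited FPKM values per isoform, which the name of the table describes as TMM-scaled. eXpress divides reads between isoforms by estimation, so that short isoforms with exons in common with long ones can take up reads of either. No counts were used here, and depth was estimated from the smallest steps of the values of 17654 genes with 1 isoform.

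Of 135276 lines, 74 without an identifier were left out, and the 135202 isoforms were summed per gene. Summed levels were tested as log2(FPKM + 0.1) with limma 3.58.1 (R 4.3.3, trended variance) in genes whose mean over the cultures compared reached 0.5 FPKM, with Benjamini-Hochberg padj over all genes. Fold changes are on this scale, which understates those of low genes. A gene was called at padj ≤ 0.05 with a log2 fold change beyond 1 in size, the study's thresholds. DESeq2 was not rerun because it needs counts. With it, the study reported more differentially expressed genes in both OGD comparisons than limma called here on summed levels. The interaction and the OGD effect averaged over both arms were contrasts in a model of 16 cultures. Single values were compared by two-sided exact permutation over 70 assignments (Python 3.11.15, scipy 1.17.1), which cannot give a p below 0.0286. Other settings were another pseudocount, filter, scaling, weighting, isoform set and leaving out cultures. The study describes the 4 cultures of a group as biological replicates. On simulated data, limma recovered 79 to 85% of 200 genes changed by 2 on the log2 scale (4 cultures against 4, at least 15926 genes), with at most 5 false calls. The simulated means and spread came from the CONTROL cultures. The members changed by less and the OGD-VEH cultures differed widely among themselves, so this recovery does not apply to the members. The 10 members and the lists of other subunits, channel-binding proteins and cell type markers were chosen with earlier results of these data known, and the text names all members, list genes that passed padj ≤ 0.05 in OGD-VEH or rose over both arms (some are not reported here), the beta subunits, and the 5 genes most like the members' mean by Pearson's r.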

Additional observations from a re-analysis of the deposited data

Results flagged for a closer look

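In 6 of 80 sets of 4 cultures (10 members, 4 groups, 2 scales), 1 culture stood apart from the other 3 by more than Dixon's critical value at 95%, which chance gives in about 1 of 20 sets. OGD-TIA 16 stood low for *Cacna1b* summed (55.0 FPKM, the others at 89.6 to 91.0) and, in full-length isoforms, for *Cacna1b* (12.7 FPKM), *Cacna1g* (6.91 FPKM) and *Cacna1h* (14.1 FPKM). The same culture had the lowest neuron marker sum of its group, 1574 FPKM. OGD-VEH 12, with the lowest neuron marker sum of all 16 cultures (1123 FPKM), stood high for *Cacna1c* summed, at 21.4 FPKM against 16.5 to 16.9 FPKM in the other 3. CONTROL-TIA 8 stood high for *Cacna2d2* in full-length isoforms, at 7.57 FPKM against 6.24 to 6.39 FPKM.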

How the results depend on the processing

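In OGD-VEH against CONTROL-VEH, where 0 of 10 members were called and 0 reached padj ≤ 0.05, the choice of isoforms and of the variance estimate moved both counts. There were 2 called and 2 at padj ≤ 0.05 with a minimum mean of 2 FPKM, 3 and 8 with array quality weights, 5 and 7 with all 16 cultures in 1 fit, 3 and 8 with isoforms weighted by length, 3 and 5 with protein-coding isoforms only, and 4 and 9 with full-length coding isoforms. With single cultures left out the counts ranged from 0 to 5 called and from 0 to 7 at padj ≤ 0.05, the high values without OGD-VEH 9. In full-length isoforms they ranged from 0 to 5 and from 0 to 9, and without the lowest OGD cultures they were 0 and 5. Apart from fewer cultures, the cause was not tested. Pseudocounts of 1 or 0.01, no filter, median-ratio scaling and robust variance changed no member's call there. *Cacna1c* ranged from -0.12 to 0.04 with single cultures left out.

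In OGD-TIA against CONTROL-TIA, 1 member reached padj ≤ 0.05 with isoforms weighted by length and 1 in full-length isoforms, where the number ranged from 0 to 2 with single cultures left out and was 2 without the 2 lowest OGD cultures. *Cacna1h* turned to 0.17 with array quality weights and 0.23 without the 2 lowest OGD cultures, and ranged from -0.11 to 0.23 with single cultures left out. In OGD-TIA against OGD-VEH, 2 members reached padj ≤ 0.05 with array quality weights. For the average over both arms, 0 members were called with isoforms weighted by length, with protein-coding isoforms only and with full-length isoforms, and 10 reached padj ≤ 0.05 with the first and the last of these. With single cultures left out, 1 to 2 were called and 5 to 8 reached padj ≤ 0.05, and without the 2 lowest OGD cultures 5 did. No paired analysis was made, because the culture numbers run from 1 to 16 and no number occurs in more than 1 group. A pairing by shared preparation remains possible, since the sources used here do not describe the preparations. The median SD between cultures of a group was 0.38 on the log2 scale.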
